A study of Mus musculus with 15 samples.

Results

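The loci of 9 genes that T cells use to signal, to choose a fate or to kill were examined as contact partners of 3 other genes in nuclei of fat cell precursors and of a B cell line. Each locus is the set of HindIII cut sites within 500 kb of a listed position in the mouse build mm9. Together the 9 loci hold 2788 of the 823355 HindIII sites measured. They make up 9 of 2015 windows of 1 Mb outside the chromosomes of the 3 baits. The members are the cytokine genes Il2, Il4 and Il10, the transcription factor genes Tbx21, Eomes, Gata3 and Stat4, the T cell receptor subunit gene Cd3e and the protease gene Gzmb. They were listed for what the genes do, and not by a rule on their capture, though earlier results of these data were known.

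The data are 4C-seq (circular chromosome conformation capture with sequencing), which counts ligations between 1 fixed site, the bait, and the rest of the genome. The baits lay at Pparg on chromosome 6, the gene of the nuclear receptor PPAR gamma, the master regulator of adipogenesis, at Lpin1 on chromosome 12, which encodes a phosphatase of triglyceride synthesis, and at Ifng on chromosome 10, which encodes interferon gamma. Pparg and Lpin1 are called the fat-gene baits here. The cells were 3T3-L1, a mouse fibroblast line that turns into adipocytes, and a line of B lymphocytes. Confluent 3T3-L1 cells were taken on day 0 and on days 1, 2 and 6 after insulin, dexamethasone and 3-isobutyl-1-methylxanthine had been given in medium with fetal calf serum. From day 2 the medium kept insulin and serum without the other agents, and later serum alone. All 3T3-L1 groups descend from 1 established line, untreated cells of later days were not analysed here, and the B cell line had no treatment in the labels. Each bait has 2 libraries for each of the 4 days and 1 B cell library, 27 libraries from 15 samples. Cells were cross-linked in 2% formaldehyde (10 min), and their chromatin was cut by HindIII, ligated, trimmed by DpnII and closed into circles.

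T cells are sorted into types by a few master regulators. Tbx21 encodes T-bet, which drives the helper type that makes interferon gamma, and Gata3 drives the type that makes interleukin 4. Loci of genes with related activity have been found near each other in nuclei of T cells, and the Ifng and Il4 loci, on different chromosomes, are a known example of such contact. Neither cell line measured here is a T cell, and the data hold no expression values, so the labelled cell types could not be checked against their marker genes.

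The windows lie at chr3:36520001-37520000 for Il2, chr11:52930001-53930000 for Il4, chr1:132420001-133420000 for Il10, chr11:96460001-97460000 for Tbx21, chr9:117890001-118890000 for Eomes, chr2:9280001-10280000 for Gata3, chr1:51540001-52540000 for Stat4, chr9:44310001-45310000 for Cd3e and chr14:56380001-57380000 for Gzmb, all in mm9. They hold 231 sites (Tbx21) to 363 sites (Gata3 and Stat4), against a median of 325 in the windows tested. A value belongs to the 1 Mb, which holds other genes as well. In gene order, taken from the RefSeq annotation of the build GRCm38.p6, Il4 lies between Kif3a and Il13, with Rad50 and Il5 beyond. Il10 lies beside Il19, Il20 and Il24 on one side and Mapkapk2 on the other. Cd3e lies beside Cd3d and Cd3g, Il2 between Adad1 and Il21, and Gzmb beside Gzmc, Gzmf and Gzmn. Tbx21 lies between Osbpl7 and Tbkbp1, Gata3 between Celf2 and Taf3, and Eomes between Cmc1 and Golga4.

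The assay reads ends made by HindIII, so the promoters themselves were searched for its site, AAGCTT, which reads the same on both strands. RefSeq promoters of GRCm38.p6 were matched by symbol for 8 of the 9 genes (10 promoters), and Il10 was not matched. In the 250 bases before the start, 0 of the 10 promoters held AAGCTT, which 6.22% of 32851 mouse promoters held. Capture at these loci is therefore read from cut sites around the promoters. The promoters of the pair of loci that differed most between baits, Il4 and Tbx21, and of Eomes, which differed the other way, are shown for what lies between those sites, 5′ to 3′ with each CG dinucleotide in capitals (at least 1 CG stands in 92.1% of all promoters). They differ in CG content. The Il4 promoter shown (chr11:53618666-53618915, minus strand) has 0, and the other matched Il4 promoter (chr11:53617339-53617588, minus strand) has 1. The Tbx21 promoter (chr11:97115332-97115581, minus strand) has 16, more than 74.6% of promoters, and the Eomes promoter (chr9:118477939-118478188, plus strand) has 8, more than 57.0%.
Il4: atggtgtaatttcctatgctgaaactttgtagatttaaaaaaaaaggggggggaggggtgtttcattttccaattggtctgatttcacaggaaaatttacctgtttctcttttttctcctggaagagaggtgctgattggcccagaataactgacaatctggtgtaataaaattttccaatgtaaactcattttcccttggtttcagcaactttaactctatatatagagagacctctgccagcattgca
Tbx21: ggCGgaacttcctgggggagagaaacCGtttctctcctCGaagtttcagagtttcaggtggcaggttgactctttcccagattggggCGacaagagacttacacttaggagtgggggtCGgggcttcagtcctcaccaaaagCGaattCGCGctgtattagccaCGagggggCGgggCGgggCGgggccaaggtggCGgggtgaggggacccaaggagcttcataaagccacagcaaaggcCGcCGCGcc
Eomes: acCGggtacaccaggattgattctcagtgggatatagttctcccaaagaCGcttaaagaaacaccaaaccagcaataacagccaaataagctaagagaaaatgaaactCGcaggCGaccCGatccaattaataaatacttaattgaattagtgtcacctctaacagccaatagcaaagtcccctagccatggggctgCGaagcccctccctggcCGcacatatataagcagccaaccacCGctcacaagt

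Captured sites are those with 1 or more reads. The libraries held 116031 to 3002206 reads, and on the autosomes other than the bait's they captured 3197 to 56201 sites, which is 0.443% to 7.72% of them. The fewest were captured by Pparg day 1 replicate 2, Pparg day 6 replicate 2 and Lpin1 day 6 replicate 2. Because depth differs, a locus is given as a multiple, its captured share over the captured share of all autosomes other than the bait's in the same library, so that 1 is the average. No member lies on a bait chromosome, and all contacts described are between chromosomes. A difference was called where its Benjamini-Hochberg adjusted p over 1960 windows was under 0.05. All 9 loci passed the filter on low values (3 or more captured sites on average).

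The Il4 locus, home of the cytokines that mark the helper type opposed to interferon gamma, was the member that most separated the baits. The Ifng bait captured it at multiples from 0.235 to 0.578 with a median of 0.354 over its 8 3T3-L1 libraries. The Pparg bait captured it at 0.754 to 2.91 (median 1.92), and the Lpin1 bait at 1.13 to 7.19 (median 2.01). Every Ifng library lay below every library of the fat-gene baits, which 6.43% of all windows showed. In captured sites, the Ifng libraries had 2 to 12 of 271 and the Pparg libraries 3 to 24. The log2 difference of Ifng from the mean of the fat-gene baits was -2.08 ± 0.24 (SE; edgeR adjusted p = 2.00e-16), a capture 0.236 times that of the fat-gene baits. Among all windows 5.20% had a lower difference. It was called against each fat-gene bait, at -2.06 ± 0.29 (SE) against Pparg and -2.11 ± 0.29 (SE) against Lpin1, comparisons that share the Ifng libraries. Against Pparg 40.1% of windows were called higher and 34.1% lower, and against Lpin1 35.7% and 32.4% (68.1% in all). By day the difference in the log2 multiple was -2.11, -1.87, -1.71 and -2.22 on days 0, 1, 2 and 6. By replicate number it was -1.91 and -2.05. It stayed called in all 24 fits that left out 1 library, from -2.24 to -1.80. When all libraries were thinned to 13067 reads, Il4 did not pass the filter on low values, so it has no value at equal reads.

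The baits differed at most places in the genome, which is the background for every count between them: edgeR called 77.3% of the 1960 windows between Ifng and the fat-gene baits, 41.4% higher with Ifng and 35.9% lower. Of the 9 loci, 5 were called, 4 lower (Il4, Tbx21, Stat4 and Cd3e) and 1 higher (Eomes). On the log2 multiple against other autosomes limma also called 5, these 4 and Gzmb, all lower, and 0 higher, where 35.7% of windows were called higher and 37.7% lower. The median log2 difference was -0.41 over the 9 loci and 0.14 over all windows. With DESeq2's size factors the median of all windows moved to 1.13, and the split of the 9 loci became 3 higher and 2 lower. Relative to the median of all windows the loci kept their values under both scalings: Il4 was at -2.22 with edgeR and -2.33 with DESeq2, Tbx21 at -1.88 and -1.89, Stat4 at -1.15 and -1.20, Cd3e at -0.76 and -0.78, and Eomes at 0.46 and 0.40. The Ifng libraries also captured more sites than most libraries of the fat-gene baits. In 3T3-L1 cells, 40.7% to 74.1% of their captured sites on other autosomes held 1 read, against 14.2% to 42.5% with the fat-gene baits. The bait site took 58.6% to 93.2% of the reads with Ifng and 3.07% to 61.4% with the fat-gene baits. After all libraries were thinned to 13067 reads, 4 loci still passed the filter, with Tbx21 at -1.78 (adjusted p = 0.0107), Eomes at 1.58 (0.000534), Stat4 at -0.50 (0.279) and Il10 at 0.81 (0.0679) in the same edgeR fit.

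**Figure D1:**
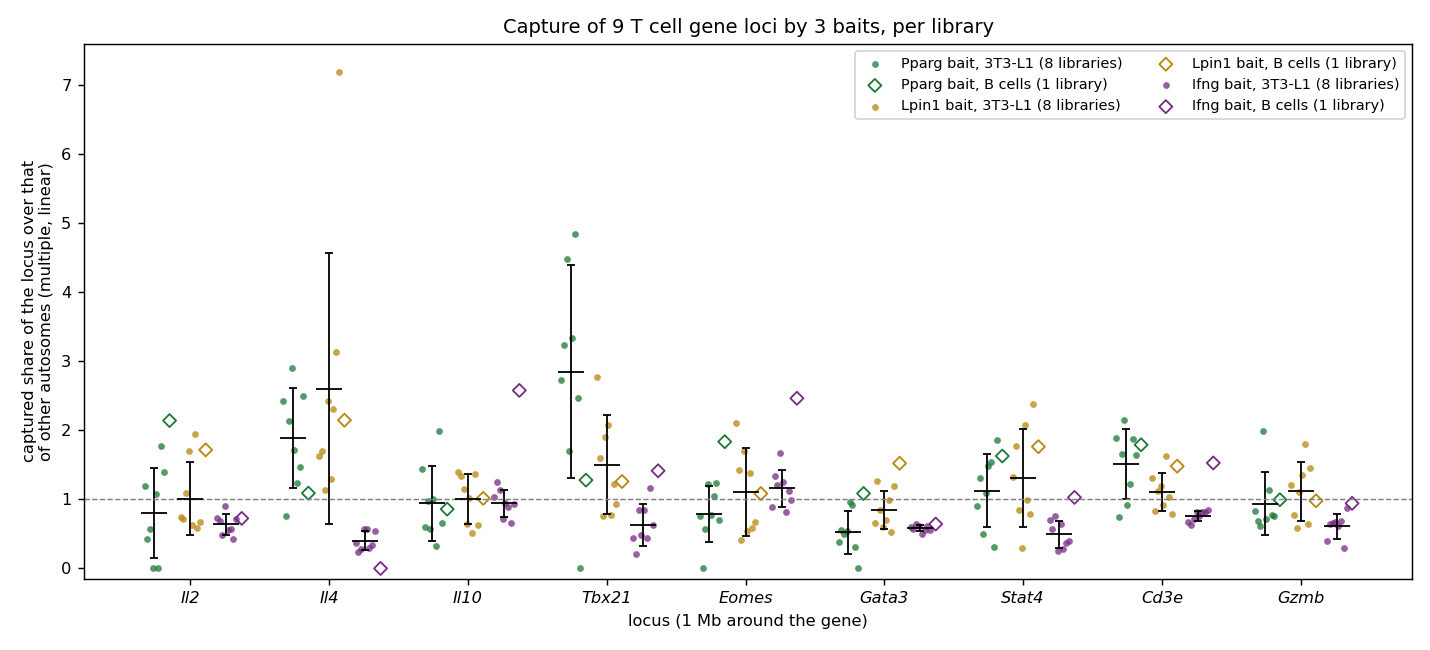
Captured share of each locus over that of other autosomes (linear multiple, y) for the 9 loci (x) and the 3 baits. Points are the 8 3T3-L1 libraries of a bait, black bars the mean and SD, open diamonds the single B cell library, and the dashed line 1. The purple Ifng points of Il4 all lie at or under 0.578, below every point of the other baits.

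Tbx21, the gene of the regulator T-bet that switches on Ifng in T cells, was also captured less by the Ifng bait than by the fat-gene baits in 3T3-L1 cells. Its multiples ran from 0.206 to 1.17 (median 0.557) with Ifng, from 0 to 4.85 (median 2.99) with Pparg and from 0.761 to 2.77 (median 1.41) with Lpin1. Of the 16 libraries of the fat-gene baits, 12 lay above all 8 Ifng libraries. The log2 difference was -1.74 ± 0.27 (SE; edgeR adjusted p = 6.24e-10), with -2.28 ± 0.28 (SE) against Pparg and -1.21 ± 0.36 (SE) against Lpin1. The difference from Pparg and Lpin1 together was -0.83 (adjusted p = 0.998) without Pparg day 6 replicate 1, which leaves that group with 1 library that captured 0 of 231 sites (a count of 0 allows a share of up to 1.30%). On the log2 multiple, with 1 added to both counts, it was -1.48 ± 0.24 (SE; limma adjusted p = 6.27e-07), and -1.34 to -1.61 with any 1 library left out. Against Lpin1 it was -0.80 (edgeR adjusted p = 0.102) without Lpin1 day 2 replicate 1 and -0.99 (0.125) without Lpin1 day 6 replicate 1.

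Tbx21 was also the 1 locus called between the fat-gene baits, with Pparg 1.08 ± 0.28 (SE) above Lpin1 on the log2 scale (edgeR adjusted p = 0.00334; 14.5% of windows were called, 9.74% higher and 4.80% lower). That call rests on single libraries: the difference was 0.64 (adjusted p = 0.37) without Pparg day 1 replicate 1, and -0.56 (0.813), with the other sign, without Pparg day 6 replicate 1. For the other 8 loci the difference between Pparg and Lpin1 was not called. Its 95% interval ran from -0.54 to 0.44 for Il4, from -0.45 to 0.70 for Il10 and from -1.45 to 0.15 for Gata3. For Cd3e it ran from -0.08 to 1.14 and for Stat4 from -1.09 to 0.16. A difference of 1.08 in size, as called for Tbx21, thus remained inside the intervals for Gata3, Cd3e and Stat4.

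Stat4 encodes the signal transducer that carries the interleukin 12 signal to Ifng in T cells. Its multiples were 0.247 to 0.754 (median 0.485) with Ifng, 0.315 to 1.87 (median 1.20) with Pparg and 0.302 to 2.39 (median 1.15) with Lpin1. The ranges overlap, and 13 of 16 libraries of the fat-gene baits lay above all Ifng libraries. The log2 difference was -1.01 ± 0.25 (SE; edgeR adjusted p = 0.000138), with -0.78 ± 0.32 against Pparg (0.0225) and -1.24 ± 0.31 against Lpin1 (0.000155). It was -0.55 among libraries numbered 1 and -1.60 among those numbered 2 on the log2 multiple. The call against Lpin1 was lost without Lpin1 day 1 replicate 1 (-0.84, adjusted p = 0.173). That against Pparg was lost without 1 of Pparg day 0 replicate 2 (-0.64), day 1 replicate 1 (-0.78), day 2 replicate 1 (-0.66) or day 6 replicate 2 (-0.46), or Ifng day 1 replicate 2 (-0.57).

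Cd3e encodes a chain of the complex that signals from the T cell receptor. Its multiples were 0.636 to 0.847 (median 0.784) with Ifng, 0.743 to 2.15 (median 1.65) with Pparg and 0.788 to 1.63 (median 1.08) with Lpin1. With Ifng all 8 libraries lay below 1 and close together. The log2 difference from the fat-gene baits was -0.62 ± 0.24 (SE; edgeR adjusted p = 0.0127). It was -0.89 ± 0.26 against Pparg (0.00116) and -0.36 ± 0.32 against Lpin1 (0.314), where the 95% interval ran from -0.98 to 0.27. The call against the fat-gene baits was lost without replicate 1 of Pparg day 0 (-0.38), day 1 (-0.50) or day 6 (-0.47), or of Lpin1 day 0 (-0.48), day 1 (-0.53) or day 6 (-0.47). The call against Pparg was lost without replicate 1 of Pparg day 0 (-0.50, adjusted p = 0.173) or day 6 (-0.68, 0.111). In a narrower window of 250 kb to each side the difference from the fat-gene baits was 0.31 (adjusted p = 0.417).

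Eomes, which encodes the T-box factor eomesodermin, a relative of T-bet, was the 1 locus that edgeR called higher with the Ifng bait, and it was not called on the log2 multiple. Its multiples were 0.825 to 1.67 (median 1.17) with Ifng, 0 to 1.24 (median 0.773) with Pparg and 0.409 to 2.11 (median 1.03) with Lpin1, so the groups overlap. The log2 difference was 0.59 ± 0.22 (SE; edgeR adjusted p = 0.0105). It was 0.68 ± 0.26 against Pparg (0.0155) and 0.51 ± 0.29 against Lpin1 (0.109). On the log2 multiple against other autosomes it was 0.42 ± 0.24 (SE; limma adjusted p = 0.11), which did not pass. The Eomes difference was 1.36 without Pparg day 0 replicate 1, which leaves that day with a library that captured 0 sites, and 0.49 (adjusted p = 0.051) without Ifng day 2 replicate 1. Against Pparg it was 2.10 and 1.02 without replicate 1 of Pparg day 0 or day 6. The call against Pparg was lost without Pparg day 1 replicate 1 (0.67), Ifng day 1 replicate 2 (0.61) or Ifng day 2 replicate 1 (0.58).

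For Il2, Il10, Gata3 and Gzmb the difference between Ifng and the fat-gene baits was not called by edgeR. Il2 encodes the T cell growth factor, and its log2 difference was -0.35 ± 0.26 (SE; adjusted p = 0.203). Its multiples had medians of 0.631 with Ifng, 0.823 with Pparg and 0.731 with Lpin1, and the Pparg libraries spread from 0 to 1.78. Gzmb encodes granzyme B, the protease that killer cells deliver to their targets, and its difference was -0.41 ± 0.26 (0.141), with multiples of 0.303 to 0.882 for Ifng and 0.592 to 1.99 over the fat-gene baits. On the log2 multiple against other autosomes Gzmb was called, at -0.62 ± 0.23 (limma adjusted p = 0.0131; 0.074 without Ifng day 6 replicate 1). Il10 encodes an inhibitory cytokine, and its 95% interval from edgeR ran from -0.58 to 0.24. For Gata3 no interval is given, since an SE taken from F is not reliable for a difference near 0. Its log2 difference was -0.0048 (edgeR adjusted p = 0.996), with 0.32 ± 0.35 (SE) against Pparg and -0.33 ± 0.32 (SE) against Lpin1. On the log2 multiple it was -0.21 ± 0.22 (SE; limma adjusted p = 0.400), and without Pparg day 6 replicate 1 edgeR gave 0.63 (adjusted p = 0.36). Its 8 Ifng multiples lay between 0.500 and 0.646, inside the range of 0 to 1.27 of the fat-gene baits.

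**Figure D2:**
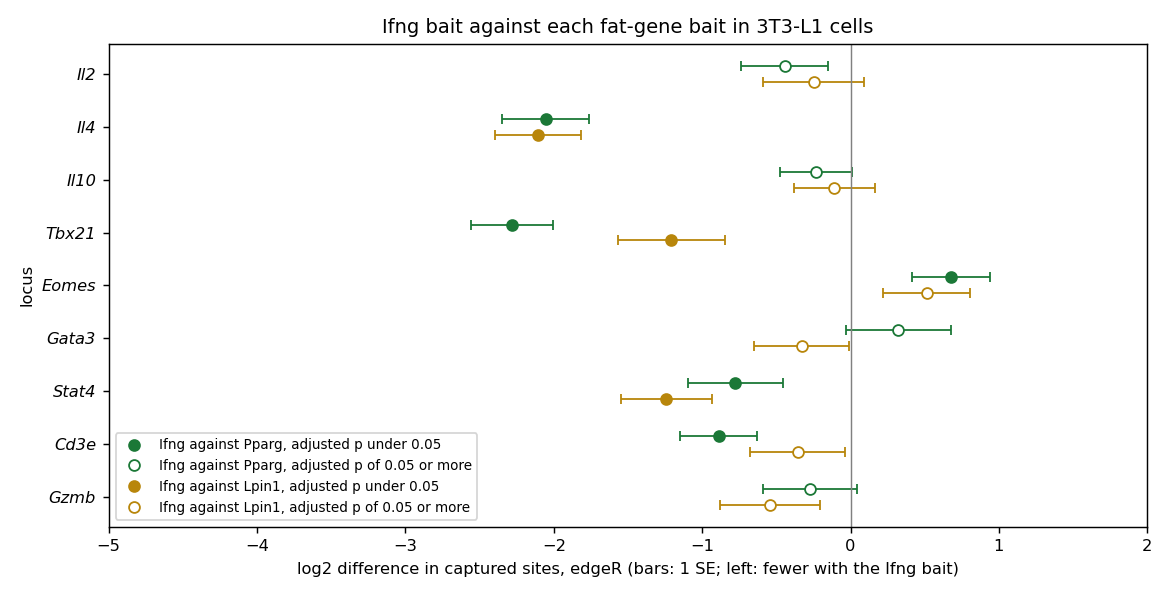
Log2 difference in captured sites (x, edgeR) between the Ifng bait and Pparg (green) or Lpin1 (gold) at each locus (y), 8 against 8 3T3-L1 libraries, with bars of 1 SE and filled points for adjusted p under 0.05. Il4, Tbx21 and Stat4 are left of 0 and filled for both baits, and Eomes is right of 0.

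Set against the rest of the genome within each bait, the loci took a different order for each. Ranked by mean multiple among the 1960 windows, Il4 stood above 98.3% of windows with Lpin1 and 83.1% with Pparg, but above 7.96% with Ifng. Tbx21 stood above 95.1% with Pparg, 79.5% with Lpin1 and 32.3% with Ifng. Eomes was the member ranked highest with Ifng, above 78.1% of windows, and stood above 49.1% with Pparg.

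With the Ifng bait, 7 of 9 loci were captured less than the average of other autosomes (limma; 45.1% of windows were called lower and 12.6% higher) and 0 more. The median of all windows was itself below that average, at a log2 multiple of -0.36. The log2 multiples, with 1 added to both counts, were -1.19 ± 0.18 (SE) for Il4, -1.0 ± 0.20 for Stat4, -0.72 ± 0.20 for Tbx21, -0.71 ± 0.18 for Gata3, -0.69 ± 0.19 for Gzmb, -0.62 ± 0.20 for Il2 and -0.37 ± 0.16 for Cd3e. Cd3e thus lay near the median of all windows. By mean multiple Cd3e stood above 46.1% of windows and Il2 above 32.8%. The Cd3e call (adjusted p = 0.0469) was lost without any 1 of the 8 Ifng libraries, and the other 6 calls were kept. Il10, at -0.10 ± 0.18 (0.658), and Eomes, at 0.17 ± 0.20 (0.47), were not called. All 8 Ifng libraries lay below 1 for Il2, Il4, Gata3, Cd3e, Stat4 and Gzmb, as they did for 37.9% of windows.

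With the Pparg bait, 3 loci were above the average (24.7% of windows were) and 3 below (47.8% were). The median of all windows was itself below that average, at a log2 multiple of -0.36. Tbx21 was at 1.11 ± 0.20 (SE; limma adjusted p = 2.84e-06) and Il4 at 0.66 ± 0.18 (0.000853). Cd3e was at 0.41 ± 0.16 (0.022), a call lost without Pparg day 0 replicate 1 (0.26), day 2 replicate 2 (0.36) or day 6 replicate 1 (0.36). Gata3, the gene of the regulator opposed to T-bet, was lowest at -0.76 ± 0.18 (0.000248), with all 8 libraries below 1, as in 28.6% of windows. Eomes was at -0.46 ± 0.20 (0.0324) and Il2 at -0.45 ± 0.20 (0.0398). Both were near the middle of all windows: by mean multiple Eomes stood above 49.1% of them and Il2 above 49.8%, with Gata3 above 33.7%. Eomes was at -0.19 (adjusted p = 0.403) without Pparg day 0 replicate 2, and not called without day 1 replicate 1 (-0.35), day 2 replicate 1 (-0.42) or day 6 replicate 2 (-0.39). Il2 was at -0.20 (0.4) without Pparg day 2 replicate 2, and not called without replicate 2 of day 0 (-0.31), day 1 (-0.37) or day 6 (-0.40). Without Pparg day 0 replicate 1 Eomes was at -0.73, and without Pparg day 2 replicate 1 Il2 was at -0.71.

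With the Lpin1 bait 1 locus was called, Il4, at 0.92 ± 0.18 (SE; limma adjusted p = 1.90e-05), above the average in all 8 libraries, as 10.5% of windows were. By limma, 20.5% of windows were called higher and 39.8% lower, with a median over all windows of -0.21. Tbx21 was at 0.40 ± 0.20 (0.0774), and the other 7 loci lay between -0.25 and 0.18.

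The chromosome and the spacing of cut sites moved with these values. Chromosome 11, which holds Il4 and Tbx21, was itself captured at 1.25 ± 0.15 (SD, n = 8) times the average with Pparg, 1.19 ± 0.07 (SD, n = 8) with Lpin1 and 0.848 ± 0.029 (SD, n = 8) with Ifng. Tbx21, Il4 and Cd3e also have the fewest cut sites among the members, with 2.65%, 9.49% and 11.1% of windows having fewer. Across the 1960 windows, which share libraries and depth, the Spearman correlation of the number of sites with the mean multiple was -0.43 for Pparg, -0.39 for Lpin1 and 0.03 for Ifng. The part of either in the differences at these loci was not tested.

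Compared with their own surroundings, the sites from 0.5 to 2 Mb on both sides, the loci stood out little. With Ifng 0 of 9 loci differed from their flanks (limma, with 0 at an unadjusted p under 0.05; 24.2% of windows were called). Il4 was at a log2 ratio of -0.38 ± 0.22 (SE; adjusted p = 0.208) to its flanks, which were themselves at a multiple of 0.573 ± 0.140 (SD, n = 8) with Ifng, 1.78 ± 0.35 (SD, n = 8) with Pparg and 1.38 ± 0.37 (SD, n = 8) with Lpin1. The flanks of Tbx21 were at 0.587 ± 0.083, 2.61 ± 1.05 and 1.54 ± 0.62 (SD, n = 8 each) in the same order, and the locus differed from them by 0.02, -0.06 and -0.08 on the log2 scale. In the 8 bins of 0.5 Mb around each position, the mean multiple with Ifng was the lowest of the 3 baits in 8 bins at Tbx21 and in 7 at Il4. At Il4 the exception was the bin at -0.75 Mb, with 1.05 for Ifng, 1.10 for Pparg and 0.715 for Lpin1. The Ifng mean was under 1 in 8 of the Tbx21 bins and 6 of the Il4 bins, and the Lpin1 mean was over 1 in 6 and 7. Among the other members, Ifng was lowest in 7 bins at Gzmb, 6 at Il2 and Stat4, 5 at Cd3e, 4 at Eomes, 3 at Il10 and 1 at Gata3. It was under 1 in 8 bins at Il2, Stat4 and Gzmb, 7 at Gata3, 6 at Cd3e, 4 at Eomes and 3 at Il10. The share of such bins over the genome was not computed.

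Eomes and Il10 were the loci called over their flanks with a fat-gene bait. With Pparg, Eomes was below its flanks in 7 of 8 libraries, at -0.91 ± 0.25 (SE; limma adjusted p = 0.0063; 32.3% of windows were called). That call was lost without Pparg day 0 replicate 2 (-0.66, adjusted p = 0.0631) or day 1 replicate 1 (-0.67, 0.0554). With Lpin1, Il10 was above its flanks in 8 of 8 libraries, at 0.84 ± 0.21 (SE; adjusted p = 0.00226; 34.4% of windows were called). Flanks reaching to 5 Mb gave 0.24 (0.278) for Il10. The difference between Ifng and the fat-gene baits in this ratio was called for Gata3, at -0.80 ± 0.26 (SE; adjusted p = 0.0132), and for Il10, at -0.63 ± 0.25 (0.0408), where 47.3% of windows were called. With flanks to 5 Mb these were 0.27 (0.282) and 0.14 (0.595), with the other sign. The Il10 call was also lost in 12 of the 24 fits with 1 library left out, where it ran from -0.70 to -0.55. It was lost without replicate 1 of Pparg day 0, 1, 2 or 6, of Lpin1 day 0 or 1, or of Ifng day 0, 2 or 6, and without replicate 2 of Lpin1 day 2 or of Ifng day 1 or 2.

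Il10 lay where the captured regions of the baits changed over. This was seen in the values in bins of 0.5 Mb, and the sides described next were chosen after that, so they are a description with no test. In the 2 Mb on the low-coordinate side of Il10, the Ifng bait had multiples of 1.23 to 1.65 (mean 1.47 ± 0.16, SD, n = 8), Pparg 0 to 0.783 (0.356 ± 0.243) and Lpin1 0 to 0.691 (0.311 ± 0.235). In the 2 Mb on the high-coordinate side Ifng had 0.491 to 0.861 (0.709 ± 0.141), Pparg 0.866 to 2.12 (1.68 ± 0.42) and Lpin1 0.335 to 1.35 (1.01 ± 0.35). On the low side all Ifng libraries lay above all libraries of the fat-gene baits, and on the high side all Ifng libraries lay below all Pparg libraries. Among the 1 Mb windows 8.67% had all Ifng libraries above all of the fat-gene baits. Such shares were not computed for stretches of 2 Mb or against Pparg alone. The even multiples of the Il10 window, with means of 0.944, 0.945 and 1.01 for Ifng, Pparg and Lpin1, thus join 2 unlike stretches. The low side had its highest mean with Ifng and the high side with Pparg. In the bin at 1.75 Mb on the high side, Ifng was also above 1, at 1.28, with Pparg at 1.65 and Lpin1 at 0.555.

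Cd3e had a similar change in the opposite order. On its low-coordinate side the mean multiple was 0.527 ± 0.159 (SD, n = 8) with Ifng, 1.80 ± 0.48 with Pparg and 1.39 ± 0.31 with Lpin1. On its high-coordinate side it was 1.04 ± 0.14 with Ifng, 0.636 ± 0.238 with Pparg and 0.918 ± 0.324 with Lpin1. At Il4 the Ifng bait had the lowest mean on both sides, at 0.533 ± 0.165 on the low side and 0.531 ± 0.124 on the high side (SD, n = 8 each). Pparg was at 1.82 ± 0.51 and 1.79 ± 0.34 there, and Lpin1 at 1.26 ± 0.53 and 2.07 ± 0.93, so the order of the fat-gene baits was not the same on both sides.

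**Figure D3:**
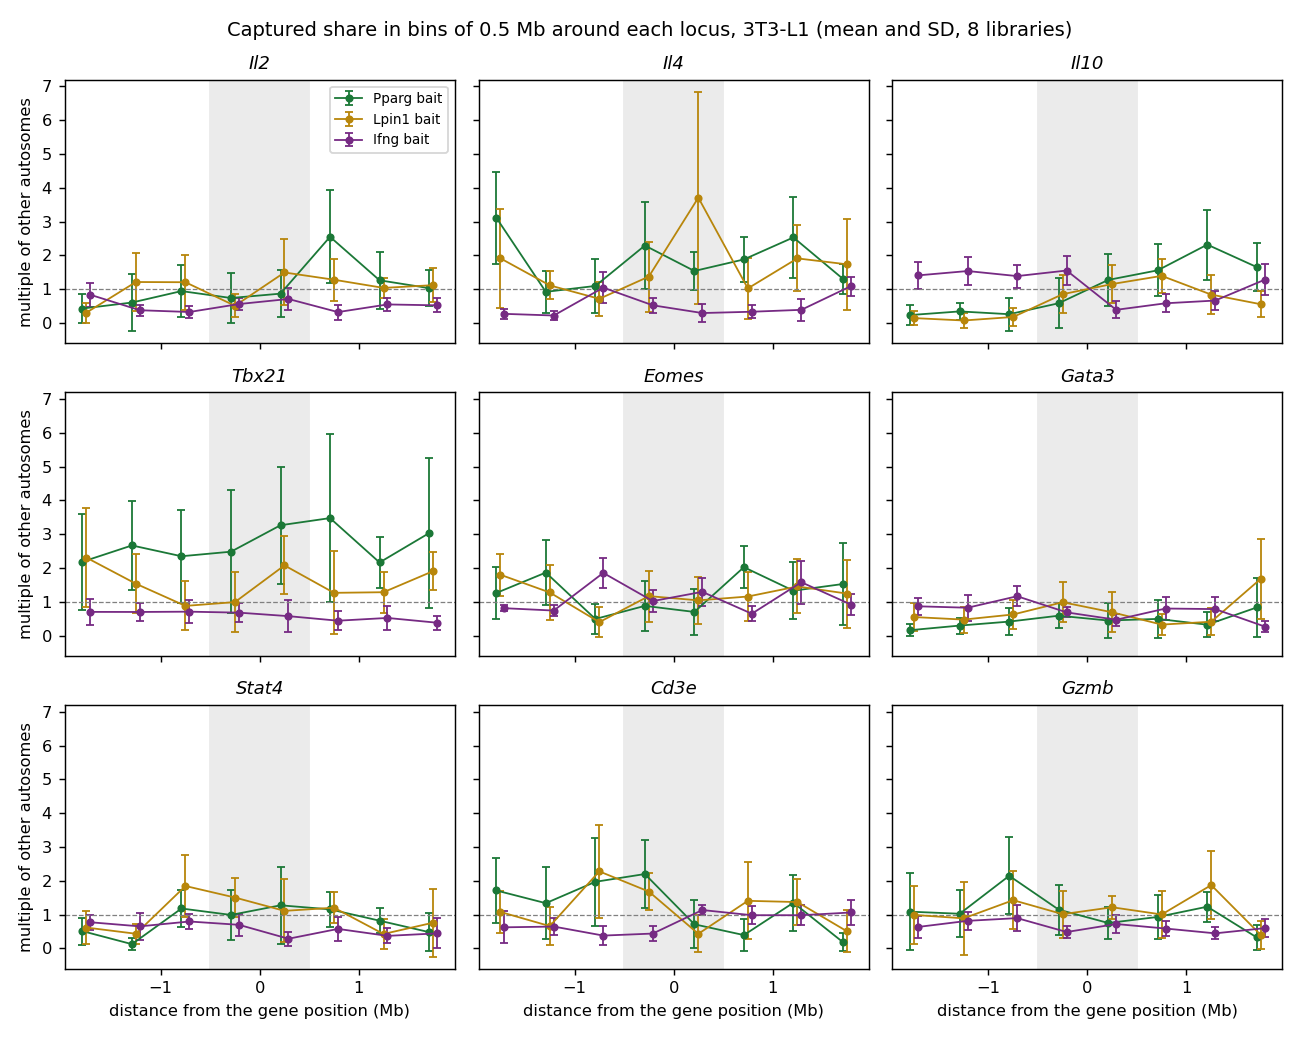
Multiple of other autosomes (y, mean and SD of 8 3T3-L1 libraries) in bins of 0.5 Mb by distance from each gene position (x, Mb), with the locus shaded. At Il10 the purple Ifng line is above the others on the left and falls below Pparg on the right, while at Il4 the Ifng line lies below 1 in all bins but those at -0.75 and 1.75 Mb.

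Within a locus, most captured sites of the fat-gene baits were seen in 1 library. Over the 9 loci, 89 of 476 sites captured with Pparg (18.7%) and 72 of 398 with Lpin1 (18.1%) were seen in at least 2 of 8 libraries, against 189 of 418 with Ifng (45.2%). In at least 4 libraries there were 2, 3 and 33 sites in the same order. At Il4 the Ifng bait made 42 captures over 8 libraries at 21 of 271 sites, 15 of them in at least 2 libraries, and the Pparg bait 87 captures at 65 sites. With Pparg, 0 Il4 sites were captured in 4 or more of the 8 libraries, and with each of Lpin1 and Ifng 1 site was. At Tbx21 the Pparg bait made 130 captures at 90 of 231 sites, of which 32 were seen in at least 2 libraries. The most often recaptured sites of any member were 3 sites of the Ifng bait, each in 6 of 8 libraries: at chr2:9302407-9302412 in the Gata3 window, at chr1:51861185-51861190 in the Stat4 window and at chr1:132479771-132479776 in the Il10 window. The Stat4 site, at -178.8 kb from the gene position, held 7 reads over the 8 3T3-L1 libraries and 11 reads in B cells. Among sites captured in at least 4 libraries of a bait, the one nearest to a gene position was at Gzmb, chr14:56884651-56884656, 4.7 kb away, with 13 reads in 5 of 8 Ifng libraries. At Eomes 38 of 79 captured sites were seen in at least 2 Ifng libraries. Eomes had 8 sites captured in at least 4 Ifng libraries, against 0 with Pparg and 1 with Lpin1. The Ifng libraries also captured more sites in the genome, and these counts were not tested.

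The time course of adipogenesis gave no called change at any of the 9 loci. In 9 comparisons, days 1, 2 and 6 against day 0 for each bait, edgeR called 0 of 9 loci each time (at most 0.306% of windows were called), and DESeq2 also called 0. At an unadjusted p under 0.05 there were 5 of 27 values with Lpin1 and 1 of 27 with Ifng. Of the 1960 windows, 103, 102 and 150 were under that p on days 1, 2 and 6 with Lpin1, and 68, 73 and 89 with Ifng. For Eomes with Lpin1, the log2 change from day 0 to day 2 was -1.31 ± 0.49 (SE; adjusted p = 0.723), with mean multiples of 1.77 ± 0.48 and 0.969 ± 0.594 (SD, n = 2 each). The values of days 1 and 6 were -1.23 (adjusted p = 0.902) and -1.74 (0.6), and that of Stat4 on day 1 was -1.17 (0.902). Il4 with Lpin1 on day 6 was at 1.17 ± 0.49 (SE; adjusted p = 0.6), with a mean multiple of 5.17 ± 2.87 (SD, n = 2) against 1.66 ± 0.05 (SD, n = 2) on day 0. Both day 6 libraries captured 9 sites there.

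Tbx21 with Ifng was at 1.35 ± 0.65 (SE; edgeR adjusted p = 0.995) on day 6 against day 0, with mean multiples of 0.900 ± 0.382 and 0.323 ± 0.165 (SD, n = 2 each). With Pparg it went from 2.99 ± 0.36 to 1.24 ± 1.75 (SD, n = 2 each). The test of the difference in day 6 change between Ifng and the fat-gene baits gave 2.32 ± 0.80 (SE; adjusted p = 0.305) for Tbx21, and 0 of 9 loci were called (0.0510% of windows were, with 1 of the loci at an unadjusted p under 0.05). With 2 libraries a day, the 95% interval reached past a change of 1 log2 unit in 74 of the 81 values (9 loci in 9 comparisons), so changes of that size were not detectable at this depth and are not shown to be absent.

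**Figure D4:**
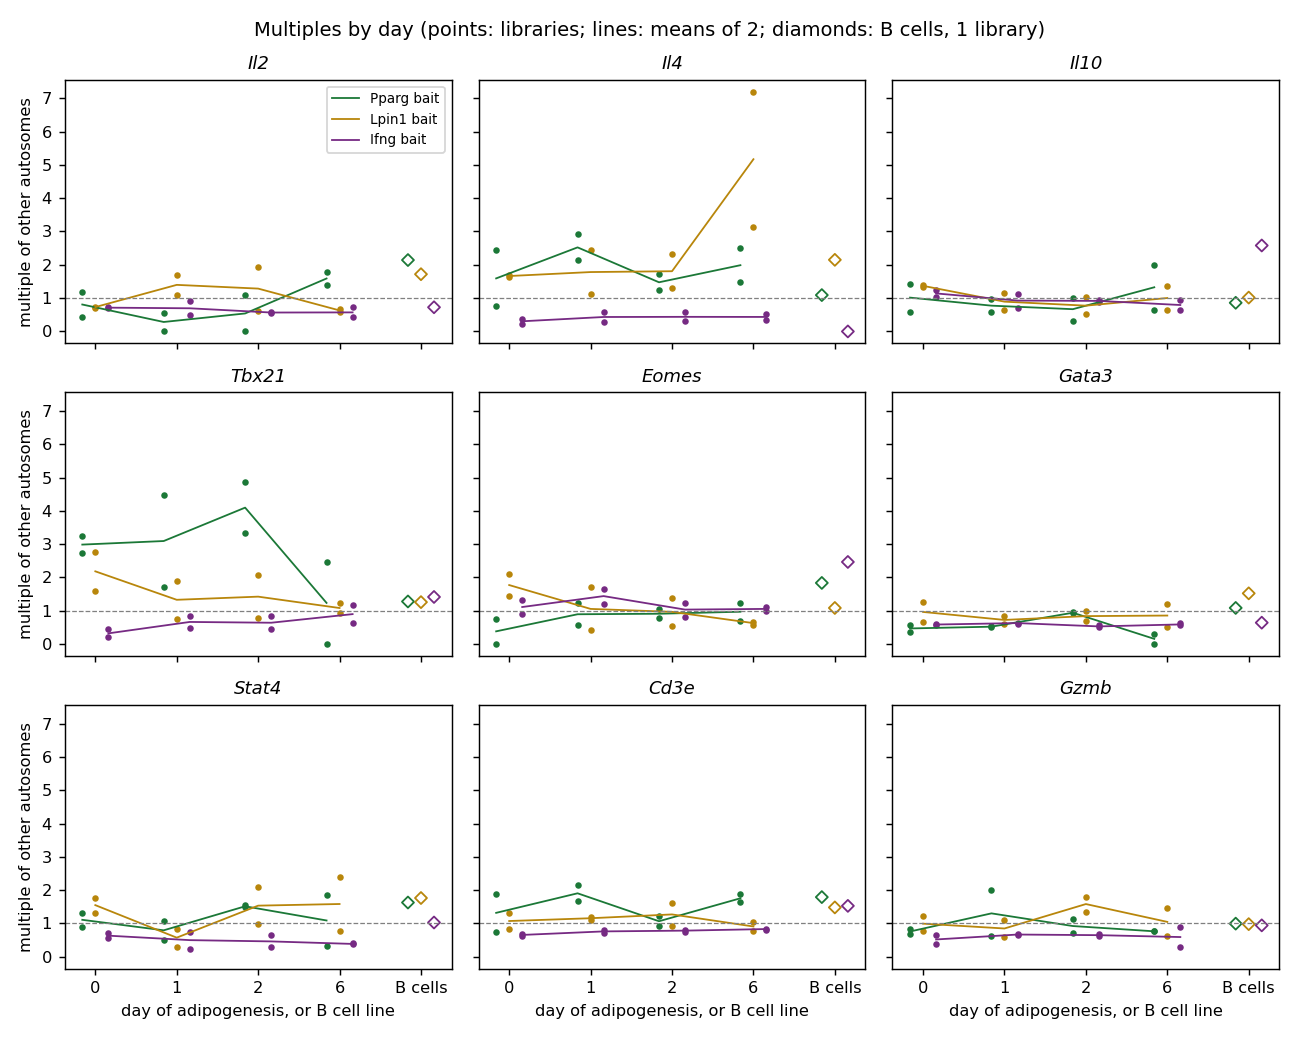
Multiple of other autosomes (y) by day of adipogenesis and in the B cell line (x) for each locus, with points for libraries, lines through the means of 2 libraries and open diamonds for the single B cell library. The largest spread is at Il4 on day 6, where the Lpin1 libraries lie at 3.14 and 7.19.

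In the B cell line 1 locus was called, Il10, a gene that B cells can also express. The Ifng bait captured 19 of its 344 sites in B cells, a share of 5.52% (95% Wilson interval 3.56 to 8.46) and a multiple of 2.58, against 0.655 to 1.25 in the 8 3T3-L1 libraries. The B cell value lies above all 8. The log2 difference was 1.42 ± 0.42 (SE; edgeR adjusted p = 0.0318; 2.96% of windows were called, 2.70% higher), with the single B cell library assumed to vary like the others. The call was lost in 14 of 24 fits with 1 library left out, at adjusted p from 0.0538 to 0.0719 and differences from 1.31 to 1.32, and DESeq2 gave 0.89 (adjusted p = 0.612). In those 14 fits the library left out was Ifng day 1 replicate 2, or any of the Pparg libraries other than day 1, or any of the Lpin1 libraries other than day 0 replicate 2. The test of whether this cell line difference differed from that of the fat-gene baits gave 1.71 ± 0.60 (adjusted p = 0.0848; 2.19% of windows were called).

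Eomes and Tbx21 also had their highest Ifng multiples in B cells. Eomes had 17 of 322 sites, a multiple of 2.47 against at most 1.67 in 3T3-L1 cells, and its log2 value of 1.03 ± 0.42 (SE) was not called (edgeR adjusted p = 0.198). Tbx21 had 7 of 231 sites, a multiple of 1.42 against at most 1.17, with 1.22 ± 0.66 (0.359). Cd3e was at 1.53 against at most 0.847, with 0.96 ± 0.57 (0.422), and Stat4 at 1.03 against at most 0.754, with 1.04 ± 0.61 (0.418). Gzmb was at 0.944 against at most 0.882. With Il10, 6 of 9 loci had an Ifng multiple in B cells above all 8 3T3-L1 libraries, which 26.8% of all windows showed, and of the 6 Il10 alone was called. The log2 value was above 0 for 8 of 9 loci, with a median of 0.96 against -0.05 over all windows. Il10 and Eomes stood above 96.4% and 95.8% of windows in the Ifng B cell library.

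Il4 went the other way with Ifng, with 0 of 271 sites captured in B cells, which allows a share of up to 1.11% and a multiple of up to 0.517. That limit lies inside the range of the 3T3-L1 libraries, so no difference between the cell lines was detectable at this depth. In the B cells the Lpin1 bait captured 20 Il4 sites, 7.38% (95% Wilson interval 4.83 to 11.1), and the Pparg bait 3 sites, 1.11% (0.377 to 3.20). With 3 counts set as the limit for the Ifng library, the Lpin1 multiple of 2.15 was 4.16-fold that limit. The counting error of the 20 Lpin1 sites is not in this ratio. The Pparg multiple was 1.09. Each bait has 1 B cell library, so a test among them assumes that these vary like the 3T3-L1 libraries. With that assumption edgeR put Il4 lower with Ifng than with the fat-gene baits within B cells (adjusted p = 0.0435; 2.19% of windows were called). The call was lost in 4 of 9 other settings, which were DESeq2, at least 2 reads per captured site, reads in place of captured sites and windows of 250 kb to each side. It was also lost without Ifng day 6 replicate 1 (0.0515) or Ifng day 6 replicate 2 (0.0508). The other 8 loci were not called, with Il10 at 1.54 ± 0.56 (SE; adjusted p = 0.134) and Il2 at -1.30 ± 0.69 (0.315).

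With the fat-gene baits 0 of 9 loci differed between B cells and 3T3-L1 cells by edgeR (0.153% of windows for Pparg and 0.459% for Lpin1), and DESeq2 called 0. With Lpin1, Il2 and Gata3 had an unadjusted p under 0.05: Il2 was at 1.09 ± 0.46 (SE; adjusted p = 0.26), with 19 of 322 sites in B cells, and Gata3 at 1.01 ± 0.44 (0.303), with 19 of 363. With Pparg 0 loci did. Of the 1960 windows, 252 were under that p with Lpin1 and 232 with Pparg. Tbx21 with Pparg was at -1.38 ± 0.75 (0.468), with a multiple of 1.28 in B cells against a 3T3-L1 median of 2.99. The 95% interval for Cd3e with Pparg, -1.23 to 1.49, rests on 5 captured sites in 1 B cell library.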

How the data were processed

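4C-seq reads were available for 3 baits in 27 libraries. The authors deposited counts, whole numbers of reads per HindIII site, not normalised. Bowtie and the build mm9 stand in the submitters' processing notes; versions, read filters and removal of PCR duplicates are not given in the sources used here. Replicate numbers come from the deposited names, and whether they mark separate cultures is not given in the sources used here. A p-value here weighs a difference against the spread between libraries of the same bait and day, which may be technical.

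Captured sites (at least 1 read) were summed over the 9 loci and over 2006 tiles of 1 Mb on the other autosomes, leaving out chromosomes 6, 10 and 12. Windows needed at least 50 sites and a mean of 3 captured sites, which 1960 of 2015 met. The 27 libraries were fitted together as 15 groups with edgeR 4.0.16 (quasi-likelihood, robust, TMM) in R 4.3.3, with a threshold of 0.05 after Benjamini-Hochberg adjustment over all windows. SEs are the log2 difference over the root of its F value, which is not reliable where the difference is near 0. Multiples were tested with limma 3.58.1 (trend, robust) on log2 of (captured + 1) / (expected + 1) against 0, or against the same value of the flanks. DESeq2 1.42.0 served as an alternative. Shares in B cells have Wilson intervals at 95% from SciPy 1.17.1. These and the limit of 3 counts for a count of 0 cover counting error only, since PCR copies of a molecule are counted as reads. In simulated data for Ifng against the fat-gene baits, edgeR recovered 31% of 2-fold and 93.5% of 4-fold changes. There 200 of 1960 windows were changed, where 77.3% were called in the data. The simulated spread between libraries was also larger than the fit estimated. These rates therefore do not give the power of this comparison. The limma simulation was another one, for Ifng alone, with every other window at the average share of its library. There limma recovered 97% and 100% against other autosomes, and 59% and 100% against flanks.

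All 9 members are named, with neighbours by gene order and up to 2 sites per locus and bait by recapture. The members and this rule were chosen with earlier results of these data known. The gene positions are those of the list and were not checked against an mm9 annotation, which was not used here; GRCm38.p6 gave gene order and promoters. The replicate numbers were not used to pair the libraries in the main fit. Over all windows, the difference between libraries numbered 1 and 2 was compared between days. Its correlation had a median of 0.09 for Pparg (0.04 to 0.18), 0.02 for Lpin1 (-0.02 to 0.29) and 0.09 for Ifng (-0.01 to 0.18). These values do not show whether the numbers mark pairs. With Pparg the number went with depth in 3T3-L1 cells: replicate 1 held 1718012 to 2551475 reads and replicate 2 held 116031 to 429788.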

Additional observations from a re-analysis of the deposited data

Results flagged for a closer look

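The Il4 multiple of Lpin1 day 6 replicate 2 was 7.19, and the nearest of the other 7 Lpin1 libraries in 3T3-L1 cells was at 3.14, a gap of 0.669 of the whole range. That library captured 9 of the 271 Il4 sites and is among the 3 libraries with the fewest captured sites. The Gzmb multiple of Pparg day 1 replicate 2 was 1.99, from 3 captured sites, with the nearest at 1.13 and a gap of 0.625 of the range. Both gaps are above Dixon's 95% critical value for 8 samples. Of 27 groups of 8 libraries (9 loci with 3 baits), 2 had such a library, where chance gives about 1 in 20.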

How the results depend on the processing

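A locus had a median of 3 to 15 captured sites per 3T3-L1 library, which limits every value. Between Ifng and the fat-gene baits 5 loci were called; at least 2 reads per captured site gave 3, reads in place of captured sites 2, windows of 1 Mb to each side 8, thinning 2 of the 4 loci that passed, and leaving out 1 library 3 to 5. The Ifng call in B cells (1) was lost (0) with DESeq2, a replicate block, reads, windows of 250 kb to each side and thinning, and leaving out 1 library gave 0 to 1. Against other autosomes, the 6 Pparg calls became 3 at 2 reads, 3 at 250 kb and 2 with thinning (4 to 6 with 1 library left out). The Lpin1 call (1) became 2 with the replicate block, 3 at 250 kb, 0 with thinning and 2 without the 3 shallowest libraries, an alternative chosen after seeing the data (1 to 2 with 1 library left out). The 7 Ifng calls became 4 at 250 kb and 2 with thinning (6 to 7). Against flanks, the Pparg call (1) became 2 at 250 kb, 2 with thinning and 3 with flanks to 5 Mb (0 to 2). The Lpin1 call (1) became 3 at 250 kb and 3 with flanks to 5 Mb (1 to 3), and the Ifng count of 0 became 1 and 2. The counts of 0 along the days and for Pparg and Lpin1 in B cells stayed 0 under all alternatives run. The replicate block left the 5 calls between baits at 5.

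Signs turned as follows. With DESeq2 size factors, against Pparg, Cd3e was at 0.23 and Stat4 at 0.24, and against both fat-gene baits Cd3e was at 0.35, Gata3 at 0.98, Gzmb at 0.51, Il10 at 0.89 and Il2 at 0.64. With windows of 250 kb to each side, Cd3e was at 0.044 against Pparg, and against both Cd3e was at 0.31, Gata3 at 0.42, Gzmb at 0.95, Il10 at 0.055 and Il2 at 0.96. On the log2 multiple at 250 kb, Cd3e was at 0.033 between the baits and 0.035 with Ifng, Gzmb at 0.29 between the baits and Il4 at -0.040 with Pparg. Gata3 between the baits was at 0.31 at 2 reads, 0.20 with reads and 0.65 at 1 Mb, and Il10 at 0.040 at 1 Mb and 0.81 with thinning. Over flanks to 5 Mb Gata3 was at 0.27 and Il10 at 0.14. With 1 library left out, the difference between the baits ran from -0.032 to 0.63 for Gata3, -0.24 to 0.13 for Il10 and -0.49 to 0.49 for Il2, and that between Pparg and Lpin1 from -0.56 to 1.38 for Tbx21. Over 43 locus values and 338 recomputations other than leaving out a library, 255 kept their sign and side of the threshold, 57 lost the call, 2 gained it and 24 turned. For these changes the cause was not tested.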
